A study of Mus musculus with 401 samples.

Results

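The comparison described here was between cumulus cells of mice aged 2 months and cumulus cells of mice aged 9 months, in the second of the study's 2 sets of samples. Its members were chosen by their labels alone. They were the 24 cumulus libraries at 2 months and the 16 at 9 months, together 40 of the 401 libraries of the series. All mice were B6D2F1 (C57BL/6 x DBA/2) females fed ad libitum (AL) and injected for hyperovulation, a hormone treatment that brings many follicles to full growth, with equine chorionic gonadotropin or the CARD HyperOva preparation. The labels do not say which preparation a mouse received. The younger group came from 5 mice (2mo1, 2mo2, 2mo34, 2mo35 and 2mo36) and the older group from 4 (9mo21, 9mo22, 9mo23 and 9mo24), with 4 libraries a mouse and 8 for mouse 2mo34. The libraries were prepared on 2 plates, B1 with 16 libraries at 2 months and 8 at 9 months, and B2 with 8 at each age, and every mouse was on 1 plate only. Each library was the pool of cumulus cells stripped from 1 oocyte of a fully grown follicle, sequenced by RamDA-seq, which reads total RNA along the whole transcript, including RNA without a poly(A) tail. In such pools, fewer cells of a type and less RNA per cell cannot be told apart.

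Cumulus cells are the granulosa cells that wrap the oocyte. They are joined to it by gap junctions, feed it with pyruvate, amino acids and cholesterol that it cannot make well by itself, divide while the follicle grows, and spread out in a hyaluronan matrix after the ovulatory surge of luteinizing hormone. The mural granulosa cells that line the follicle wall turn into luteal cells, which carry the luteinizing hormone receptor and the enzymes of progesterone synthesis. The question put to the data was which transcripts differed between young and middle-aged cumulus cells.

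Total counts per library ranged from 510029 to 1147286 at 2 months and from 721757 to 981049 at 9 months, with medians of 854936 and 856765. Markers of cumulus and granulosa cells were present in every library at both ages. Being a list for both, they do not set cumulus apart from mural granulosa cells. The summed level of 14 cumulus and granulosa markers ranged from 5635 to 16119 CPM, counts scaled to a common library size, at 2 months and from 6177 to 15807 CPM at 9 months, and 0 of the 14 passed edgeR's test between ages (2 at an unadjusted p under 0.05), while DESeq2 called 1, Inha (an inhibin subunit). The 18 oocyte markers summed to at most 56.1 CPM in any library. Red blood cell, endothelial, immune, surface epithelial and theca or stromal markers gave no called gene in edgeR or DESeq2. Of theca and stroma, 4 markers had an unadjusted p under 0.05 (3 higher and 1 lower at 9 months), as did 2 of immune cells (1 in each direction). Of the 40 libraries, 4 stood apart on the first principal component (7.31% of the variance), all of them at 9 months. Library 3 of mouse 9mo23, libraries 2 and 3 of mouse 9mo24 and library 3 of mouse 9mo21 scored 17.4 to 28.9, while the highest of the other 36 scored 10.1. Mitochondrially encoded genes took 14.6% to 19.3% of the counts in these 4, against a median of 7.77% at 2 months and 10.1% at 9 months. Such shares were not confined to them. Another library of mouse 9mo23 had 16.9% (score -0.087) and a library of mouse 2mo36 had 15.04% (score -12.5). Results that rest on the 4 libraries that stood apart are given with and without them. The cut was set after the scores were seen and removes older libraries only, which leaves 12. It takes the top of a component whose mean over mice was -4.05 at 2 months and 5.59 at 9 months. Calls lost without these libraries are therefore lost partly by construction.

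Of 23024 genes tested, 388 passed an adjusted p of 0.05 in edgeR's quasi-likelihood test with plate in the fit, which is 1.69% of the genes. Of these, 291 (1.26%) were higher and 97 (0.421%) lower at 9 months. At an unadjusted p under 0.05, 9.97% of genes were higher and 5.81% lower. Among 10397 genes with a mean of at least 8 CPM, 259 (2.49%) were called. The libraries of 1 mouse share that mouse, so counts were also summed per mouse. With 5 mice against 4, only 5 genes (0.0217%) passed, all of them higher at 9 months, while 11.3% of genes had an unadjusted p under 0.05. The levels of the 5 younger and the 4 older mice did not overlap for 149 of the 388 genes (38.4%), against 3.15% of all genes tested (1.75% higher and 1.41% lower at 9 months), although both figures use the same libraries and the first was chosen for its difference. By the same tool, 0 genes were called for a difference of the age effect between the plates, which hold different mice, while 2215 genes (9.62%) had an unadjusted p under 0.05 in that test. Without the 4 libraries that stood apart, 62 genes were called, 58 of them among the 388. Leaving out 1 mouse at a time gave from 65 calls (without 2mo36) to 488 (without 9mo22). "Rose" and "fell" below refer to the test over libraries.

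Transcripts from a cluster of near-identical genes on the X chromosome rose at 9 months, here and in the first set. It lies between positions 147742175 and 150085298 (GRCm38) and contains Luzp4, Ott (named for its transcription in ovary and testis) and many predicted genes and pseudogenes. The table holds 49 genes in this stretch, of which 18 had enough libraries with a count to be tested. Of the 18, 17 rose (1.26% of all genes did). Gm15086, the remaining gene, had an adjusted p of 0.0589 in edgeR's quasi-likelihood test. The ranges of the 5 younger and 4 older mice were separate for all 18 (3.15% of all genes). Most of the 18 rounded to 0 in all 24 younger libraries, so they had enough libraries with a count only through older ones. Rises and separate ranges were thus largely fixed in advance, and the members share split reads. Without the 4 libraries 12 of the 16 still tested were called, and with the mouse as a random block in limma 16 of the 18. On plate B1 alone 0 were called and on B2 alone 7. Over libraries DESeq2 gave no adjusted p for any of the 18, which its filter on mean counts left out. The stretch was delimited after its values had been seen, so these counts describe it and no test was made of the whole. Between 87.5% and 100% of the nonzero counts of the 18 genes were not whole, because the authors split reads that match several copies among them. How the signal divides among members is therefore uncertain, and the sum over the cluster is the safer quantity.

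The near-identity of the copies is visible in their upstream sequence. RefSeq (GRCm38.p6) gives a promoter for 11 of the 49 genes. The 250 bases before the start of 4 of them are shown, all on the plus strand, 5′ to 3′, with Luzp4 (chrX:148882326-148882575) in lower case and, in Ott (chrX:149097702-149097951), Gm15107 (chrX:148180474-148180723) and Gm15080 (chrX:147992743-147992992), capitals for each base that differs from Luzp4. They are shown as an example of how alike the copies are, and lie before the RefSeq start, so they are not the sequence from which reads were counted in Gm15107 and Gm15080.
Luzp4: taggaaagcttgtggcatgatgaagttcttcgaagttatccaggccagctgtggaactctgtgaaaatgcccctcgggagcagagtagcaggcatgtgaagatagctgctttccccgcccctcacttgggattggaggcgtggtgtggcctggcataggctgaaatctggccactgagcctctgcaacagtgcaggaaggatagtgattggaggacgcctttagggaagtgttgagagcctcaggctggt
Ott: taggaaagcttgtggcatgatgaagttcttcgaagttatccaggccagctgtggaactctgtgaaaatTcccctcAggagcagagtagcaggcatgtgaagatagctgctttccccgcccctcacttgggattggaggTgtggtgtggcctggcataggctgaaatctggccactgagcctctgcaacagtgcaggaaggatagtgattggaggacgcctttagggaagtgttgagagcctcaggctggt
Gm15107: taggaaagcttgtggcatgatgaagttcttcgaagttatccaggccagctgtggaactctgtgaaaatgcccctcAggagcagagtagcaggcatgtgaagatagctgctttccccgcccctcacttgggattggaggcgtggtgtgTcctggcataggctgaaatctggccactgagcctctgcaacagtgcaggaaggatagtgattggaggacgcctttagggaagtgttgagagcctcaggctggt
Gm15080: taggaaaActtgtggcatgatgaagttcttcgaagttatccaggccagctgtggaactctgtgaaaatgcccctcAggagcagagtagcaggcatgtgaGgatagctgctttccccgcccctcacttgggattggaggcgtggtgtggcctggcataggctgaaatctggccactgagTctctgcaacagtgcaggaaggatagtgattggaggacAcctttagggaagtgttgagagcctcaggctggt

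Ott differed from Luzp4 at 3 of the 250 bases, Gm15107 at 2 and Gm15080 at 5. Over the 300-base windows of the RefSeq table, which run past the start, 8 of the 10 other promoters were 97.96% to 99% identical to that of Luzp4 once their starts were aligned. Gm15114 and Gm15093 were the exceptions, at 39.25%. The RefSeq start of Luzp4 lies inside the longer gene of the GENCODE annotation used for counting, which begins at 148857640. The letters of the AP-1 motif (TGANTCA) were found, on either strand of the 250 bases, in 2 of the 11 promoters and in 6.749% of 32851 promoters of the same length. Those of CRE (TGACGTCA), NR5A (AAGGTCA), the EGR core (GGGGGCG), E2F (TTCCCGCC), SREBP (TCACNCCAC), TEAD (GGAATG) and the E-box (CACGTG) were found in 0 of the 11, and in 1.546%, 4.079%, 14.83%, 1.857%, 1.053%, 12.64% and 6.021% of all. No motif's letters contain another's. The 2 with the AP-1 letters were Gm15114 and Gm15093, and neither Luzp4 nor its near copies held them. Most of the 11 are near copies of 1 sequence, so they are not 11 separate observations. The 11 promoters held a median of 4 CpG dinucleotides, against 6 in all promoters.

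At 2 months the summed counts of the cluster ranged from 0 to 3 per library, with a median of 0.625, and 0 of 24 libraries had more than 3 counts. At 9 months they ranged from 1 to 68.9, with a median of 25.1, and 15 of 16 libraries had more than 3. The exception was library 3 of mouse 9mo22, with 1 count among 859949. By mouse, the cluster stood at 1.29, 0.774, 1.14, 1.84 and 0 CPM at 2 months and at 22, 18.5, 42.7 and 51.8 CPM at 9 months. Every older mouse was thus above every younger one. Over all libraries of a group, 21.3 counts (1.038 CPM) at 2 months stood against 457.5 (33.6 CPM) at 9 months, a ratio of 32.4 (95% counting interval 21.2 to 53.6). The interval covers counting error only, since reads without molecular identifiers are not independent molecules.

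Luzp4, Gm10439 and Gm15091 show the pattern in individual genes. Luzp4 had deposited counts that summed to 1.10 over the 24 younger libraries and to 39.8 over the 16 older ones. Its level rounded to 0 in all 5 younger mice and was 1.55, 1.11, 4.70 and 4.68 CPM in the older ones (adjusted p = 0.000374 in libraries and 0.0666 in mouse sums, edgeR). Gm10439, with 1.73 counts against 45.0, was the only member also called in mouse sums (adjusted p = 0.0419). Gm15091, which had the most counts at 9 months (50.9), already had 6.43 at 2 months and a ratio of 11.9 (95% counting interval 5.49 to 36.5). Gm15085 had no count at 2 months and 17.95 at 9 months, at least 9.01-fold higher if 3 counts are taken as the floor of the younger group. The fitted log2 differences of the 18 genes, 1.98 to 4.33, depend on the prior count of the fit where the younger libraries are at 0.

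In the other cumulus libraries the same sum was ordered by age. Mice at 2 months without hyperovulation lay between 0.308 and 3.79 CPM (8 mice), mice at 4 months between 4.18 and 18.0 CPM (8 mice) and mice at 14 months between 27.5 and 57.7 CPM (5 mice). The highest mouse at 4 months lay just under the lowest at 9 months, 18.5 CPM, while the ranges at 9 and 14 months overlapped. With all ages in 1 fit, 3 of the 18 genes were called at 4 months, where 0.316% of 26304 genes rose, and 18 at 14 months, where 0.684% did. These comparisons share the libraries at 2 months. In the first set, which shares no library with the second, the 2 young mouse labels stood at 0 and 0.999 CPM, the 4 middle-aged (9 months) at 26.1 to 53.7 CPM, the 2 old (14 months) at 72.0 and 75.2 CPM, and the 3 calorie-restricted mice of 9 months at 19.3 to 27.9 CPM. There, 16 of 17 tested members rose from young to middle age, against 0.541% of all genes. The same kind of filter lay behind this count and those at 4 and 14 months. The oocytes of the second set gave 1.63 CPM over 24 oocytes at 2 months and 1.66 CPM over 16 at 9 months, and individual oocytes at the older age did not exceed 3.73 CPM.

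**Figure D1:**
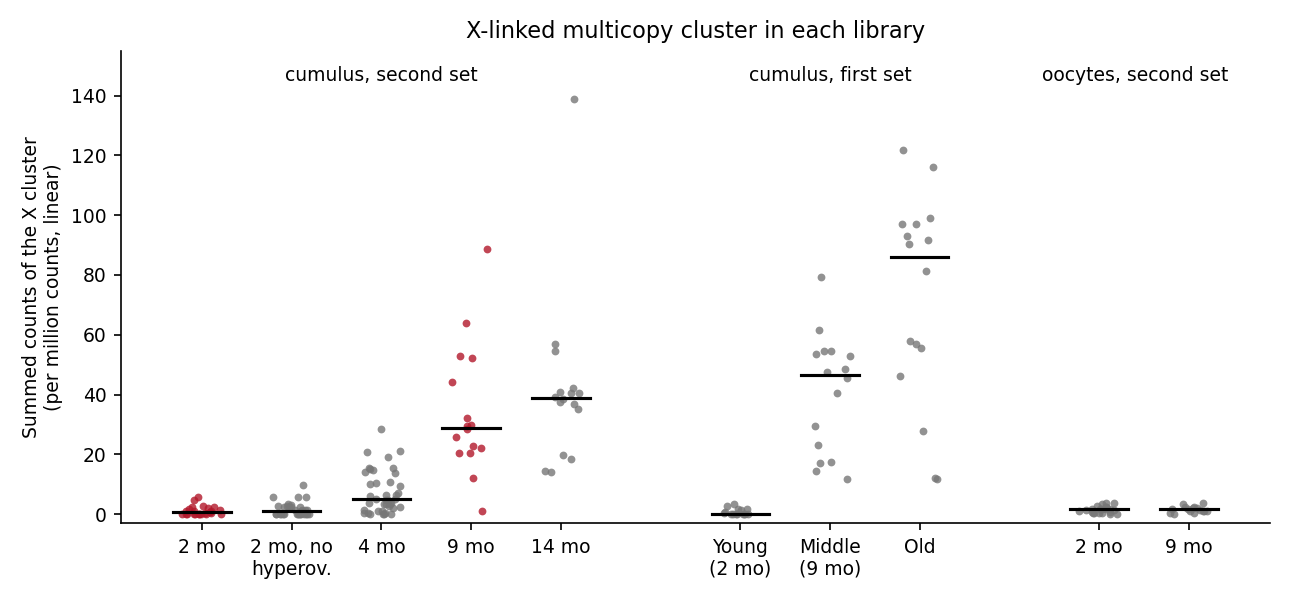
Summed counts of the X-linked cluster in each library, in CPM (linear axis), by age group in cumulus cells of the second set, cumulus cells of the first set and oocytes of the second set. Points are libraries, bars are medians, and red marks the cumulus libraries at 2 and 9 months compared here. The younger red points lie at or below 5.86 CPM, and 15 of the 16 older ones lie above them.

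Cited2, a transcriptional co-regulator that binds CBP and p300, was the only protein-coding gene outside the X cluster that was called when counts were summed per mouse. In libraries it ranged from 17.7 to 84.6 CPM at 2 months (median 63.9) and from 36.9 to 318 CPM at 9 months (median 103). The 5 younger mice stood at 73.6, 62.6, 53.3, 50.6 and 50.4 CPM and the 4 older at 132, 111, 90.2 and 123 CPM. The mice did not overlap. The log2 fold change was 1.06 ± 0.21 (SE, adjusted p = 0.00491 in libraries and 0.0319 in mouse sums, edgeR), and 1.01 on plate B1 and 1.13 on plate B2. It was 1.01 without the 4 libraries that stood apart (adjusted p = 0.0192, edgeR). The first set differed, with a log2 fold change of -0.44 that did not pass (adjusted p = 0.654, edgeR). Cited2 was called neither at 4 months (-0.11, adjusted p = 0.858) nor at 14 months (0.62, adjusted p = 0.142, edgeR), against the same younger libraries.

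The other genes called in mouse sums were long noncoding or predicted transcripts. Kirrel3os, an antisense transcript of the Kirrel3 locus, went from 4.04, 7.64, 6.16, 6.35 and 4.55 CPM in the younger mice to 19.5, 16, 13.8 and 20.3 CPM in the older, a log2 fold change of 1.63 ± 0.30. The strand was not used in counting as far as stated, so its reads cannot be told from those of an overlapping gene. Gm48114 went from 109, 93.2, 78.7, 65.5 and 38.7 CPM to 192, 164, 153 and 156 CPM. Gm45061 went from 32.3, 30.6, 28.1, 33 and 29 CPM to 53.9, 55, 66.7 and 79.8 CPM. Older mice were above younger ones throughout for all of these genes. Gm48114 (log2 fold change 1.27 ± 0.22) and Gm45061 (1.07 ± 0.19) also rose in the first set, by 0.99 and 1.13 on the log2 scale (adjusted p = 0.0234 and 0.000799, edgeR). Gm45061 was raised at 14 months too (log2 fold change 1, adjusted p = 0.000665), whereas Gm48114 was not called there (0.44, adjusted p = 0.360, edgeR). Kirrel3os was called neither in the first set (0.80, adjusted p = 0.426) nor at 14 months, where it lay the other way (-0.17, adjusted p = 0.913, edgeR).

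**Figure D2:**
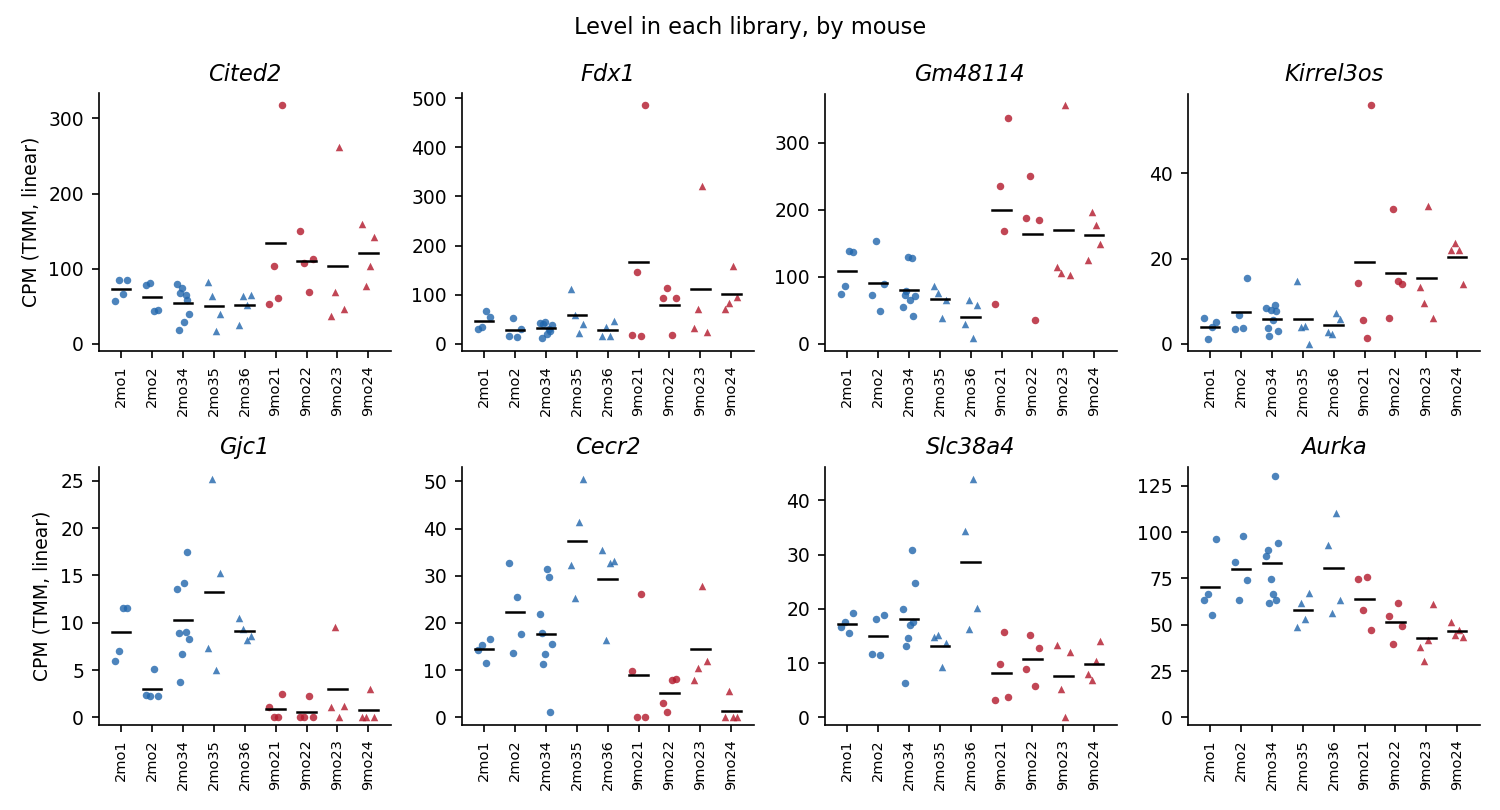
Level of 8 genes in each cumulus library, by mouse, in CPM scaled by TMM (linear axes that differ between panels). Points are libraries (circles plate B1, triangles plate B2, blue 2 months, red 9 months) and bars are means over the libraries of a mouse. The upper row shows genes that rose and the lower row genes that fell. Mouse 9mo21 and mouse 9mo23 each hold a library far above the rest for Cited2 and Fdx1.

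Gjc1 was among the genes that fell. It encodes connexin 45, a gap junction protein, and was singled out after its values had been seen because its mean lay under the 8 CPM set for naming. At 2 months all 24 libraries held it, at 2.22 to 25.2 CPM (median 8.45). At 9 months 9 of 16 libraries were at 0 and the highest was at 9.51 CPM. The younger mice stood at 9, 2.94, 11, 12.4 and 9.39 CPM and the older at 0.929, 0.553, 3.23 and 0.623 CPM, so that only mouse 9mo23 and mouse 2mo2 overlapped. The log2 fold change was -2.76 ± 0.41 (adjusted p = 0.00012 in libraries and 0.0834 in mouse sums, edgeR), -3.24 on plate B1 and -2.41 on B2. Gjc1 was also lower at 4 months (-1.47, adjusted p = 0.00798) and at 14 months (-2.70, adjusted p = 4.8e-05, edgeR), against the same younger libraries. In the first set it was lower by 1.55 on the log2 scale, which did not pass (adjusted p = 0.105, edgeR).

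Cecr2, which encodes a bromodomain subunit of an ISWI chromatin remodeller, ranged from 1.09 to 50.5 CPM in the younger libraries (median 19.9) and from 0 to 27.8 CPM in the older (median 6.7), where 5 of 16 were at 0. The younger mice stood at 14.6, 22.3, 18.6, 36.1 and 30.2 CPM and the older at 8.98, 4.98, 13.2 and 1.25 CPM, without overlap. The log2 fold change was -1.71 ± 0.34 (adjusted p = 0.00463 in libraries and 0.150 in mouse sums, edgeR). The first set gave -1.71 as well but did not pass (adjusted p = 0.0675, edgeR), and the 14-month libraries gave -2.15 (adjusted p = 9.21e-05, edgeR). Slc38a4, an amino acid transporter, fell from 17.4, 15.3, 18.6, 13 and 30.4 CPM in the younger mice to 7.74, 10.5, 7.94 and 9.66 CPM in the older. Its mice did not overlap either. The log2 fold change was -1.03 ± 0.23 (adjusted p = 0.0112), and -0.99 in the first set (adjusted p = 0.0479, edgeR). Cecr2, Slc38a4 and Gjc1 were still called without the 4 libraries that stood apart (adjusted p = 0.00191, 0.0296 and 0.00218, edgeR).

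The other large falls among genes of at least 8 CPM were smaller or less even. Among them were Eya4 (a developmental phosphatase and transcriptional co-activator, -1.23), Camk4 (a calcium and calmodulin-dependent kinase, -0.96), Ap1s2 (a subunit of a clathrin adaptor, -0.92), Fn1 (fibronectin, -0.91), Fam221b (-0.90), Gm45540 (-0.80) and Eef1akmt1 (a lysine methyltransferase, -0.79), all log2 fold changes with adjusted p between 0.0126 and 0.0482 (edgeR). Mice did not overlap for Fam221b, Gm45540 and Eef1akmt1 and did for the rest. None of these 7 was called without the 4 libraries, where their log2 fold changes were -0.69 to -1.11, or in the first set, where Gm45540 and Eef1akmt1 lay the other way (0.38 and 0.22). Fn1 shows how variable some of these were, with younger libraries between 3.37 and 74.0 CPM and older ones between 7.02 and 38.1 CPM.

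Some genes of cell division fell by a small amount. Of 28 mitosis genes, 6 fell (Top2a, Ccna2, Aurka, Kif11, Tpx2 and Ube2c) and 0 rose, 18 had an unadjusted p under 0.05 and all 18 of these were lower, and the median log2 fold change was -0.24 against 0.04 over all genes tested. Over all genes, 0.421% fell. Aurka, the kinase of spindle poles, had a median of 67.1 CPM in younger libraries (48.9 to 130) and of 48.2 CPM in older ones (30.6 to 75.8), a log2 fold change of -0.53 ± 0.11 (adjusted p = 0.00927, edgeR). The mice stood at 70.8, 80.0, 84.6, 56.1 and 84.5 CPM against 63.5, 51.2, 41.4 and 46.4 CPM, with mouse 9mo21 inside the younger range. Ccna2 (cyclin A2) fell by 0.44, Ube2c (a ubiquitin-conjugating enzyme of the anaphase-promoting complex) by 0.47 and Kif11 (a spindle kinesin) by 0.33 on the log2 scale. Of 28 DNA replication genes, Rrm2, a subunit of ribonucleotide reductase, fell (-0.43, adjusted p = 0.0388, edgeR) and none rose, with a median of -0.19. The summed mitosis level was 3730 ± 371 CPM over 5 younger mice and 3115 ± 293 CPM over 4 older ones (SD). It differed with an exact permutation p of 0.0476, adjusted over 19 measures to 0.201. The smallest p that regrouping 5 and 4 mice can give is 0.00794. Without the 4 libraries, 2 mitosis genes were called and the list median was -0.22, and with the mouse as a random block 5 were called. Rrm2 was called in neither. DESeq2 called the same 6 mitosis genes, Cdc20 and Rrm2, all lower at 9 months. In the first set the median of the mitosis list was 0.10, with 1 gene higher and 0 lower. At 14 months, against the same younger libraries, none of the named genes was called (adjusted p = 0.294 to 0.918, edgeR). Their log2 fold changes there were -0.08 for Aurka, -0.21 for Ccna2, -0.22 for Ube2c, -0.07 for Kif11 and -0.06 for Rrm2. Top2a and Tpx2 were not followed to that age.

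Genes of cholesterol and sugar metabolism gave few calls, all of them lower at 9 months, where 0.421% of all genes fell. Of 25 genes of cholesterol synthesis and uptake, Acat2, which joins acetyl-CoA units, and Stard4, a sterol carrier, fell and none rose, with a median of -0.27 and 11 lower genes at an unadjusted p under 0.05. Neither was called with the mouse as a random block (adjusted p = 0.107 for Acat2 and 0.109 for Stard4, limma) or without the 4 libraries, where the median was -0.30. Stard4 went from 151, 151, 104, 105 and 131 CPM in the younger mice to 66.3, 82.7, 74.1 and 108 CPM in the older (log2 fold change -0.61 ± 0.15, adjusted p = 0.0216, edgeR), with mouse 9mo24 inside the younger range. Acat2 fell by 0.53 on the log2 scale. Of this list DESeq2 called Acat2, Stard4 and Idi1, all lower at 9 months. Of 18 glycolysis genes, 0 were called in edgeR (DESeq2 called Slc2a1 and Tpi1) and 9 were lower at an unadjusted p under 0.05, with a median of -0.28. The first set gave medians of -0.19 and -0.01 for these lists and 0 calls in either. Stard4 was lower at 4 months (-0.59, adjusted p = 0.0291) but not called at 14 months (-0.07, adjusted p = 0.930, edgeR). Acat2 was called at neither age (-0.22 and 0.38, adjusted p = 0.529 and 0.312, edgeR).

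The steroid synthesis genes gave 3 rises and 1 fall, where 1.26% of all genes rose and 0.421% fell. Of 16 tested genes, Cyp11a1 (the side-chain cleavage enzyme that begins steroid synthesis), Hsd3b1 and Fdx1 (ferredoxin 1, its electron donor) rose and Stard4 fell, with a median of 0.25. With the mouse as a random block in limma 0 of the 16 were called (adjusted p = 0.345 for Cyp11a1, 0.670 for Hsd3b1, 0.132 for Fdx1 and 0.109 for Stard4), and without the 4 libraries only Fdx1 was, with a list median of -0.02. Fdx1 ranged from 12.7 to 112 CPM at 2 months (median 33.9) and from 17 to 486 CPM at 9 months (median 87.9). The younger mice stood at 46.3, 29.1, 31.9, 58.9 and 26.5 CPM and the older at 162, 79.1, 95.2 and 97 CPM, without overlap. Its log2 fold change was 1.59 ± 0.32 (adjusted p = 0.0039 in libraries and 0.0834 in mouse sums, edgeR), 1.82 on plate B1 and 1.29 on B2, and 1.45 without the 4 libraries (adjusted p = 0.0293). It did not pass in the first set (0.16, adjusted p = 0.858, edgeR). Star, the cholesterol carrier of the mitochondrion, did not pass edgeR's test either (0.98, adjusted p = 0.0679), although its mice did not overlap. DESeq2 called the same 4 genes and also Star (higher) and Tspo (lower), a protein of the outer mitochondrial membrane. Hsd3b1 rose by 1.11 ± 0.31 on the log2 scale (adjusted p = 0.0485), but younger mice, at 108 to 242 CPM, and older mice, at 101 to 424 CPM, overlapped, and without the 4 libraries it was not called (0.57, adjusted p = 0.503, edgeR).

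The luteal and mural granulosa markers depended on few libraries. Of 10 genes, 5 rose (Lhcgr, Sfrp4, Abcb1b, Cyp11a1 and Prss35), where 1.26% of all genes did. The median log2 fold change of 2.18 became 1.03 without the 4 libraries. With the mouse as a random block in limma 0 of the 5 were called (lowest adjusted p 0.0551, for Abcb1b), and DESeq2 called Sfrp4, Cyp11a1 and Star. The summed level was 44.0 to 328 CPM at 2 months (median 67.5) and 50.1 to 3148 CPM at 9 months (median 93.5). The highest was library 3 of mouse 9mo23 at 3148 CPM, which stood apart, followed by library 4 of mouse 9mo21 at 620 CPM and library 4 of mouse 9mo23 at 347 CPM, which did not stand apart. At 2 months library 1 of mouse 2mo35 reached 328 CPM. Cyp11a1 was highest in the same pair of older libraries, with 1303 CPM in the highest older library, 122 CPM in the highest younger one, and medians of 12 and 3.54 CPM. Lhcgr, the luteinizing hormone receptor, had 866 CPM in library 3 of mouse 9mo23, a median of 1.70 CPM at 9 months and 0.475 CPM at 2 months. Its log2 fold change of 3.30 became -0.11 without the 4 libraries. Abcb1b, a drug-efflux transporter, was the only one of the 5 still called without them (2.87, adjusted p = 0.00688, edgeR), and it also rose in the first set (3.69, adjusted p = 0.0185), as did Sfrp4, a secreted Wnt antagonist (2.38, adjusted p = 0.0365, edgeR). Mice of that set overlapped for both genes. Abcb1b stood at 1.81 and 1.23 CPM in the young mice and at 0, 4.04, 13.6 and 58.0 CPM in the middle-aged. Sfrp4 stood at 8.76 and 5.14 CPM against 3.49, 6.59, 33.9 and 91.45 CPM. Other luteal genes did not pass, with log2 fold changes of 0.30 for Akr1c18 and 2.20 for Ptgfr (adjusted p = 0.802 and 0.130, edgeR). The part of luteal or mural cells in these results was not tested.

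The largest fitted rises also came from few libraries. By the naming rule, the 10 largest among genes of at least 8 CPM were Pappa and 9 genes of a multicopy stretch on chromosome 5 (25935791 to 26121421, GRCm38), among them Gm1979, Gm21671 and Gm5067, with log2 fold changes of 3.96 to 4.66. All 14 tested genes of that stretch rose, against 1.26% of all genes, but the stretch was drawn around 9 genes picked for their rise. The 9 genes summed to 0 to 58.2 CPM at 2 months, where the median was 0, and to 0 to 3653 CPM at 9 months, where the median was 1.32. The signal lay in 3 libraries, library 3 of mouse 9mo23 (3653 CPM), library 2 of mouse 9mo24 (783 CPM) and library 3 of mouse 9mo21 (165 CPM), and all stood apart on the first principal component. The other 12 older libraries reached at most 52.7 CPM, inside the younger range. Between 61.9% and 100% of the nonzero counts of these 9 genes were not whole. Pappa, a protease that releases insulin-like growth factors from their binding proteins, had 420 and 360 CPM in the first 2 of these libraries and at most 35.4 CPM in the other 12. Without the 4 libraries none of the 10 genes was called, and with the mouse as a random block in limma none was. Against the same younger libraries, Pappa was also called at 14 months (4.43, adjusted p = 0.000143, edgeR). Its median there was 6.30 CPM. Of the 9 chromosome 5 genes, Gm1979 and Gm10220 passed at 14 months (3.28 and 3.07, adjusted p = 0.0405 and 0.0414, edgeR) and the others did not. In the first set none of the 10 was called.

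**Figure D3:**
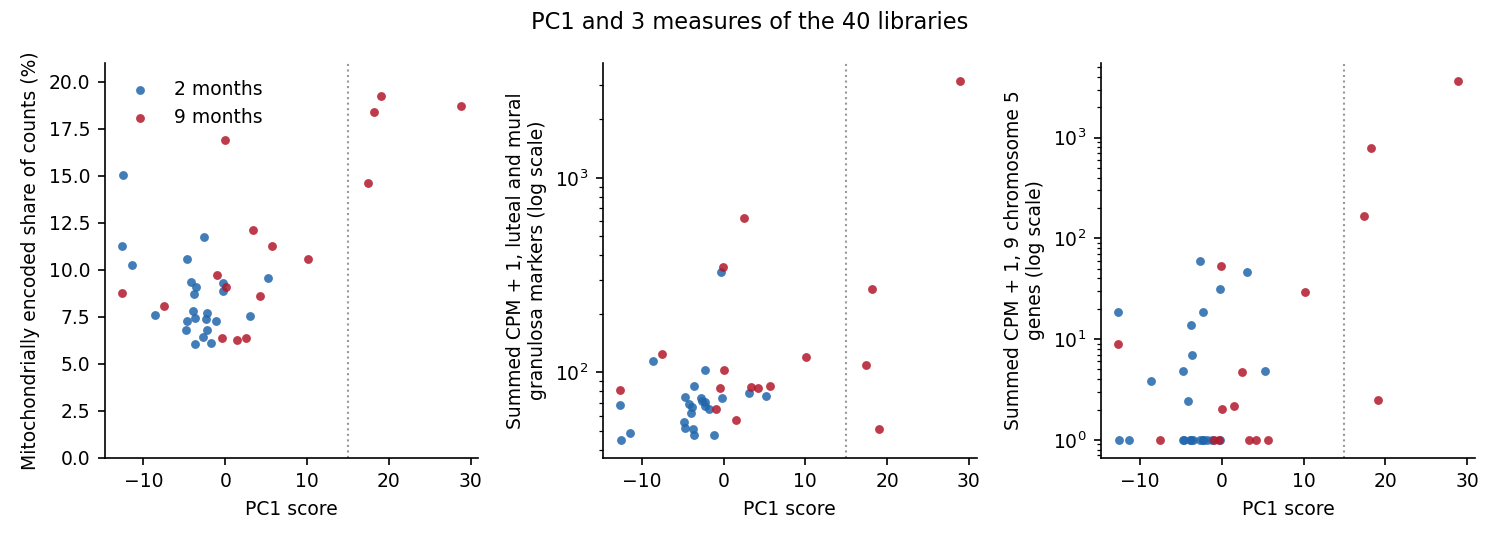
Share of mitochondrially encoded counts (%, linear axis), summed luteal and mural granulosa markers and summed level of 9 chromosome 5 genes (CPM plus 1, log axes) against the score on the first principal component, for the 40 cumulus libraries. The dotted line marks a score of 15. The 4 older libraries to its right have the highest score, 14.6% to 19.3% mitochondrial counts, and among them the highest values of both gene groups.

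The immediate early genes, transcription factors and feedback genes induced within minutes of a stimulus, gave no called gene. Of 41 genes, 0 rose and 0 fell in edgeR's test or in DESeq2, 3 were higher and 5 lower at an unadjusted p under 0.05, and the median was -0.07. The summed level ranged from 3408 to 15375 CPM at 2 months and from 2439 to 17716 CPM at 9 months. In the first set 19 of 40 were lower at middle age, with a median of -1.35, where 0.743% of all genes were. The difference between the sets was not tested. Fos, for instance, stood at 2826, 1497, 2943.5, 1796 and 1766 CPM in the younger mice and at 1492, 2052.5, 2001 and 536 CPM in the older, a log2 fold change of -0.51 ± 0.28 (adjusted p = 0.379, edgeR), with only mouse 9mo24 well below the rest. The study names 10 genes as examples of the hubs of its network, which it built on the first set. Of the 5 that were lower in its old cumulus cells, Fos, Fosb, Sik1, Zfp36 and Jun, 0 were called here, with log2 fold changes of -0.51, 0.01, -0.07, -0.01 and -0.43. At 14 months, the age of the study's old mice, 0 were called in the second set either (-0.10, 0.04, 0.37, 0.32 and -0.16). Of the 5 that were higher, Luzp4, Gm15093, Gm15127 and Gm15109, all members of the X cluster, rose, and Tia1, an RNA-binding protein of stress granules, missed the threshold (0.59, adjusted p = 0.0605, edgeR), was called in DESeq2, and had a log2 fold change of 0.29 without the 4 libraries (adjusted p = 0.566, edgeR). At 14 months the 4 X cluster genes were called and Tia1 was not (0.34, adjusted p = 0.257, edgeR).

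Few other genes of the cumulus program were called, where 1.26% of all genes rose and 0.421% fell. Nrip1, a co-regulator of nuclear receptors needed for ovulation, rose from a median of 318 CPM to 458 CPM (log2 fold change 0.54 ± 0.15, adjusted p = 0.046, edgeR). Together with Pappa it made 2 of 21 genes of cumulus expansion and the luteinizing hormone response. Neither was called with the mouse as a random block or without the 4 libraries (for Nrip1 adjusted p = 0.129 in limma, and a log2 fold change of 0.65 with adjusted p = 0.0503 in edgeR), and the first set gave -0.13 for Nrip1. The expansion genes Has2, Ptgs2, Ptx3 and Tnfaip6 had log2 fold changes of 1.03, -0.30, -0.17 and 1.26 and did not pass. Of the 21 genes DESeq2 called only Nrip1. Among 32 receptors and regulators of granulosa cells edgeR called only Lhcgr, which was lost with the mouse as a random block (adjusted p = 0.563, limma) and without the 4 libraries. Without those libraries 1 other member of this list was called, higher at 9 months. DESeq2 called Inha and not Lhcgr. Among 28 matrix genes and proteases, Lama1, a laminin chain of basement membranes, rose (median 993 to 1438 CPM, log2 fold change 0.54 ± 0.09, adjusted p = 0.000938, edgeR) and Fn1 fell, and Lama1 stayed called without the 4 libraries (0.42, adjusted p = 0.0296) and with the mouse as a random block (adjusted p = 0.00184, limma). It was not called in mouse sums (adjusted p = 0.259, edgeR), where mice at 874 to 1402 CPM and at 1043 to 1802 CPM overlapped, nor in the first set (0.06, adjusted p = 0.819, edgeR). Of the matrix genes and proteases DESeq2 called Lama1 and Fn1 and also Col4a1 and Thbs1. Of 22 Wnt and Notch genes, Wnt5a and Sfrp4 rose, and 0 were called with the mouse as a random block or without the 4 libraries, where Wnt5a had too few libraries to be tested. DESeq2 called Sfrp4 and gave no adjusted p for Wnt5a. No gene was called among 21 of the unfolded protein and integrated stress response, 14 heat shock proteins, 24 interferon, NF-kB and cytokine feedback genes, 18 p53 and cell cycle inhibitor genes, 15 circadian clock genes, 26 antioxidant genes, 14 Hippo effectors and CCN targets, or 26 TGF-beta, BMP and SMAD genes. At an unadjusted p under 0.05 these lists held 2, 6, 4, 4, 1, 6, 3 and 2 genes. The 6 heat shock genes were all lower. DESeq2 called 3 genes of these lists, Chordc1 and Hspa4l among the heat shock proteins and Cry2 of the clock.

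Few nuclear and mitochondrial transcripts were called, and the libraries highest in Malat1, in Snhg11 and in the mitochondrially encoded share of counts were all among the 4 that stood apart. Malat1 had a median of 3771 CPM at 2 months (2151 to 5454) and of 4919 CPM at 9 months (3393 to 14277), a log2 fold change of 0.55 ± 0.15 (adjusted p = 0.0417, edgeR), and 0.34 without the 4 libraries (adjusted p = 0.278). Snhg11 rose from a median of 9.05 to 17.2 CPM, and its 4 highest libraries were those 4. Its log2 fold change of 1.34 became 0.50 without them (adjusted p = 0.481, edgeR). Malat1 and Snhg11 made 2 of 10 tested nuclear long noncoding RNAs, where 1.26% of all genes rose. Of the 13 mitochondrially encoded protein genes, mt-Nd1 was called (0.44 ± 0.12, adjusted p = 0.0455, edgeR) and 12 were higher at an unadjusted p under 0.05. The median of the list was 0.32, and 0.11 without the 4 libraries. Malat1, Snhg11 and mt-Nd1 were called neither without them nor with the mouse as a random block. DESeq2 called these 3 and also mt-Nd4, mt-Nd4l and the nuclear long noncoding RNA Kcnq1ot1, all higher at 9 months. In the first set 3 of the 13 fell, with a median of -0.26, and the difference between sets was not tested.

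The age difference also followed gene length. Among protein-coding genes of at least 8 CPM in 10 bins of length, the median log2 fold change went from -0.13 in the shortest bin to 0.10 in the longest, and from -0.08 to 0.09 in the first set. Genes that rose numbered 3 in the shortest bin and 44 in the longest, and genes that fell 14 and 5. When the trend of each library was removed, the medians lay between -0.02 and 0.01, and 403 genes were called, 313 of them among the 388. All 18 tested genes of the X cluster were called then. The mitosis list, with a median gene length of 4314 bases, kept a median of -0.24. By class, 45 of 1397 transcripts awaiting experimental support (TEC) rose and 1 fell, with a median of 0.38, and 181 of 14287 protein-coding genes rose and 77 fell, with a median of 0.01.

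**Figure D4:**
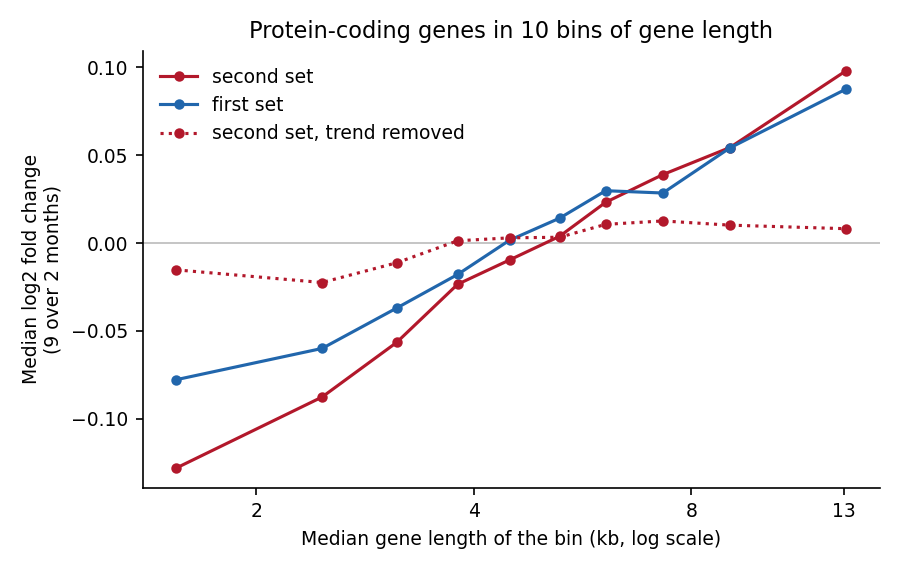
Median log2 fold change of protein-coding genes in 10 bins of gene length (kb, log axis), for the second set (red), the first set (blue) and the second set after the length trend of each library was removed (dotted). Both solid lines climb from negative medians in short genes to positive ones in long genes, -0.13 to 0.10 in the second set, and the dotted line stays near 0.

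The first set compared the same ages in other mice, with 15 young and 16 middle-aged libraries of 2 and 4 mouse labels. There 292 of 22744 genes were called (1.28%), 123 higher and 169 lower. Leaving out 1 mouse there gave from 3 calls (without Young2) to 1068 (without Middle1). With counts summed per mouse 0 genes were called there, and all p-values given for the first set are over libraries. Of the genes that rose in the second set, 32 also rose in the first, which is 11% of 291 and 26% of 123. Of these 32, 15 belonged to the X cluster, and the others included Abcb1b, Sfrp4, Thbs2 (thrombospondin 2), Leng8, Gm48114, Gm45061 and Tmem29, which lies just past the X cluster. Tmem29 went from 8.07, 10.3, 10.8, 14 and 14.8 CPM in the younger mice to 17, 17.4, 18.8 and 30.9 CPM in the older, without overlap, and fewer of its nonzero counts (7.5%) were split. Without the 4 libraries it was not called (0.59 against 0.82 on the log2 scale, adjusted p = 0.210, edgeR). Of the genes that fell, 3 were shared (Slc38a4, Tob2 and Topors), which is 3.09% of 97 and 1.78% of 169. No gene was called in opposite directions. Thbs2, Leng8, Tmem29, Tob2 and Topors were named after their values were seen.

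**Figure D5:**
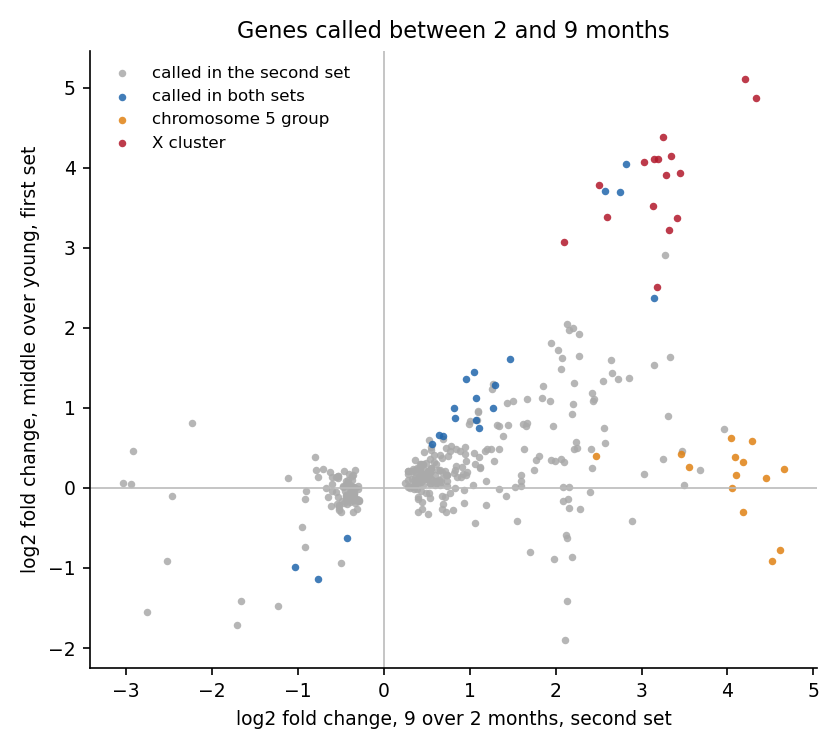
Log2 fold change from 2 to 9 months in the second set (horizontal) and from young to middle-aged mice in the first set (vertical), for the genes called in the second set and tested in both. Members of the X cluster (red) lie at 2.10 or more in the second set and 2.51 or more in the first, with values that depend on the prior count of the fit. Genes of the chromosome 5 stretch (orange) lie to the right but near 0 vertically, and most grey genes, called in the second set only, lie near the horizontal line.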

How the data were processed

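RamDA-seq libraries were made by the authors from cumulus pools, with PCR amplification and no molecular identifiers. Per the labels, the submitters' processing notes name HISAT2 2.0.5, featureCounts 1.5.1 and GRCm38. The study's methods add trimming with Fastq-mcf and the GENCODE vM15 annotation. The deposited tables hold expected counts, with reads that match several genes divided among them (35.1% of nonzero counts in the second set and 36.8% in the first were not whole), and RPKM values that the authors computed from them, used here only for principal components of log10(RPKM + 1). Plus or minus values are SE of fits or SD over mice. Every column had a sample.

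Counts were rounded. A gene was tested where 5 or more libraries held a count, with edgeR 4.0.16 (quasi-likelihood F test, TMM, plate as covariate, Benjamini-Hochberg adjusted p under 0.05), following the study's filter and threshold with the plate added, over libraries and over counts summed per mouse. Replicates are libraries and mice as labelled. P-values over libraries of few mice measure mostly the spread within mice. The first set was fitted without a plate, with all 16 middle-aged libraries. limma 3.58.1 with voom and the mouse as a random block (correlation within mice 0.0158), DESeq2 1.42.0, other filters and scalings, single plates, each mouse left out and 4 alternatives chosen after seeing the data were also run. Measures of libraries were compared over mice with a two-sided exact permutation test. No 2 libraries agreed within sampling noise (lowest chi-square per gene 1.61).

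Named genes were the 10 largest rises and falls among called genes of at least 8 CPM, the genes called in libraries, in mouse sums and in the first set, up to 4 called members of at least 8 CPM of each of 30 gene lists, and 10 genes the study names as hubs. One of the falls is not reported here. Others are said to have been chosen after their values were seen or complete a count of 5 or fewer. The members and the lists were chosen with earlier results of these data known. On simulated counts for these 40 libraries, with 200 of 23024 genes changed, the fit recovered 67 at 1.5-fold, 144 at 2-fold and 192 at 4-fold, with 10, 29 and 14 false calls. Each simulated library was drawn without a mouse effect, so the false calls do not cover libraries that share a mouse. Summed per mouse, the same simulated counts gave 48, 135 and 189 recovered genes and 3, 21 and 9 false calls. Gene positions are those of the annotation. Analyses used R 4.3.3 and Python 3.11.15.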

Additional observations from a re-analysis of the deposited data

Results flagged for a closer look

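In 8 of 142 groups of mice examined, 1 mouse lay far from the others of its age, where chance flags about 1 in 20. At 9 months mouse 9mo23 had 55.26 CPM of Gm5067 against 0.5531 to 9.664 in the other mice, and a share of Malat1 and Neat1 of 0.8773% against 0.5342% to 0.5892%. At 2 months mouse 2mo35 stood out for Cyp11a1 (36.33 CPM against 1.553 to 4.808), Sfrp4 (23.63 CPM against 0.5881 to 2.404), Gm7347 (2.794 CPM against 0.3105 to 0.9015) and Gm45540 (47.25 CPM against 40.87 to 42.37). Mouse 2mo1 had 27.34 CPM of surface epithelium markers against 18.26 to 20.75, and mouse 9mo22 had 2507 CPM of DNA replication genes against 2321 to 2352. Mouse 9mo23 holds library 3, which stood apart on the first principal component, and mouse 2mo35 holds library 1, the highest younger library for Cyp11a1 and Sfrp4.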

How the results depend on the processing

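The 388 genes called in libraries became 441 without the plate, 409 with DESeq2's size factors, 358 with edgeR's own filter, 335 without a filter, 528 in DESeq2, 544 with all ages in 1 fit, 454 with the oocyte marker level as covariate, 403 with the length trend removed and 552 without the older library low in the X cluster. They became 160 among genes with whole counts (the X cluster is then not tested), 146 with the mouse as a random block, 247 with the mitochondrial share as covariate, 12 on plate B1 alone, 44 on plate B2 alone, 5 in mouse sums and 62 without the 4 libraries that stood apart. Leaving out 1 mouse gave 65 to 488 (65 without 2mo36, 112 without 9mo21, 211 without 9mo24, 216 without 9mo23, 229 without 2mo35, 244 without 2mo34). The 5 genes called in mouse sums became 78 in DESeq2, 2 without the plate and 3 with edgeR's filter, and 0 to 52 without 1 mouse. The 292 genes of the first set became 3 to 1068 without 1 mouse (3 without Young2, 38 without Middle2, 61 without Young1, 111 without Middle4, 1068 without Middle1) and 429 in DESeq2. In mouse sums of the first set 0 genes passed. Of 19 measures of libraries 0 passed over mice, and 5 passed when libraries were permuted. Over mice, the first principal component had the smallest p that the exact permutation test can give, 0.00794, adjusted to 0.151. A single measure could therefore not pass alone, and the 0 says little. Directions turned without the 4 libraries for Gm21663 (-0.2104), Gm21698 (-0.04015), Gm21680 (-0.5667), 5031410I06Rik (-0.5771), Gm7347 (-0.5762), Lhcgr (-0.1078) and Speer4a (-1.105), and with the mitochondrial share as covariate for Gm21680 (-0.1234), 5031410I06Rik (-0.1846), Gm7347 (-0.13) and Speer4a (-0.6554), all log2 fold changes. The cause was not tested. DESeq2 gave no adjusted p for the X cluster, and edgeR's filter removed it. No paired analysis was possible because mice of different ages share no number and no donor. Few counts per gene limit the X cluster to its sum.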
